A study of Mus musculus with 24 samples.

Results

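Treatment of NIH3T3 fibroblasts with a Hedgehog agonist was accompanied by 543 strongly acetylated regions with no acetylation peak nearby in control cells and none in the wild-type limb bud. They came from a list of 87766 peaks of H3K27ac in purmorphamine-treated cells, of which 19989 lay within the rank limit and on chromosomes 1 to 19 and X. A region was taken as gained if its peak ranked 20000 or better in the treated list, had no control peak within 1 kb and overlapped no H3K27ac peak of wild-type (WT) forelimb buds. The 543 gained regions were 2.72% of the strong treated peaks. The regions were selected on the ranks and positions of peaks in both NIH3T3 lists and in the WT limb list, so the gain itself is not a finding. The word gained means that no control peak was called, not that acetylation was absent from control cells.

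The study used chromatin immunoprecipitation and sequencing (ChIP-seq) on 24 libraries from mouse, and asked how Hedgehog signaling changes histone marks at enhancers. NIH3T3 is an established line of mouse embryonic fibroblasts that responds to Hedgehog. Cultures received either 400 nM purmorphamine or DMSO for 48 h. Both were in medium with 0.5% calf serum, and the sample labels write LIF for both without explaining it. Both used the H3K27ac antibody ab4729, with 2 immunoprecipitations and 2 inputs each. The limb samples were forelimb buds of Swiss Webster embryos at E10.5, with 32 to 35 somites, either WT or lacking Sonic hedgehog (Shh-/-), and their H3K27ac came from another antibody, C15200184. According to the study's methods, the WT limb samples held heterozygous littermates as well. Limb buds contain several cell types, while NIH3T3 is a single line. Each list was called on both replicates together, so no value below has a spread between replicates, no difference was tested, and intervals are 95% Wilson intervals that cover counting error only. The intervals treat each peak as independent, although the 543 gained regions become 449 when those within 1 kb are merged. As a check of cell identity, the starts of 10 of 10 fibroblast marker genes carried an H3K27ac peak in both NIH3T3 lists. Of 12 markers of other cell types, Cdh1 and Pecam1 carried one in the treated list and Krt8 in the control list.

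Acetylation of lysine 27 of histone H3 marks active enhancers and promoters. Hedgehog ligands bind Patched receptors and so release Smoothened, which purmorphamine activates directly, and the signal then shifts GLI transcription factors from truncated repressors to activators. GLI factors bind the sequence GACCACCCA, and Gli1 and Ptch1 are classic direct targets in many responding tissues.

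The exact GLI motif, on either strand within 500 bp of the midpoint of the peak, was found for 16 of 543 gained regions. The window can reach past a narrow peak, and the match lay inside the peak for 13 of the 16 and outside it for 3, at 48, 85 and 158 bp from its edge (ranks 18609, 18941 and 12862). The sequences of the best-ranked of these, from GRCm38, the assembly named mm10, are shown because the motif connects a region to the transcription factors at the end of the pathway. Each runs 5′ to 3′ on the strand that carries the motif, which is in capitals.
rank 459, near Emilin3, chr2:160952916-160952976, plus strand: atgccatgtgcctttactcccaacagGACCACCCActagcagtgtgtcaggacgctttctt
rank 5985, near Ntn1, chr11:68306185-68306245, plus strand: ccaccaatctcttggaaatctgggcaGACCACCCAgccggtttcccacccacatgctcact
rank 6569, near Fosl2, chr5:32103112-32103172, plus strand: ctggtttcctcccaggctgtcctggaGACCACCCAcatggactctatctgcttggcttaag
rank 9736, near Syt2, chr1:134651579-134651639, minus strand: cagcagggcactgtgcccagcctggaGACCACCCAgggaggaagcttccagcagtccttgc
rank 10417, near Sla, chr15:66823463-66823523, plus strand: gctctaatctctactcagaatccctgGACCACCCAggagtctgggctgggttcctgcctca
rank 12862, near Atp2b1, chr10:98824281-98824341, plus strand: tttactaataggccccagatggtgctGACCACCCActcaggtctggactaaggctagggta
rank 13220, near Cwc27, chr13:104672550-104672610, plus strand: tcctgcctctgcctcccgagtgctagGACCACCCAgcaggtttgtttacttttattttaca
rank 13976, near Slc39a11, chr11:113273832-113273892, minus strand: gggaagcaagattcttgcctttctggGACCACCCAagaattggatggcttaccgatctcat
rank 14610, near Zmiz1, chr14:25118427-25118487, plus strand: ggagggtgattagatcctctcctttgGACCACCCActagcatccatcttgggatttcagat
Of the 10 best-ranked regions with a motif in the window, the one ranked 15176 is left out above, since its window overlaps an annotated untranslated region. The best-ranked gained region of all was among them. It covered 5350 bp at chr2:160950000-160955349, over an exon of Chd6, a chromatin remodeller of the chromodomain family, and its motif lay 272 bp from the midpoint. The region ranked 5985 lay in an intron of Ntn1, which encodes the guidance cue netrin-1, and had a control peak at 1401 bp. The region ranked 6569 lay between genes, 31552 bp from the start of Fosl2, a member of the AP-1 family. The others fell in introns of Syt2, Sla and Tg, Cwc27 and Slc39a11, or between genes near Atp2b1 and Zmiz1, and the motif printed for the region near Atp2b1 is the one 158 bp beyond its edge. No window of a gained region held more than 1 exact match, and 0 of the matches overlapped another motif searched here.

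The GLI motif was in the windows of 2.95% of gained regions (1.82 to 4.73%). For comparison, strong peaks that overlapped a control peak and no WT limb H3K27ac peak are called shared (8625 peaks), and strong control peaks with no treated peak within 1 kb and no limb overlap are called lost (212 peaks). The motif was in 1.11% of shared peaks (0.912 to 1.36%) and in 0.943% of lost peaks (0.259 to 3.37%), and 1.11% of all 19989 strong treated peaks held it. The interval of the gained regions lay above that of the shared peaks and overlapped that of the lost peaks, which rests on 2 motifs. With no control peak within 5 kb, the gained share was 2.27% (1.15 to 4.41%), and its interval overlapped that of the shared peaks. At a rank limit of 10000 the gained share was 3.88% (1.52 to 9.56%), with an interval above that of the shared peaks. Searched over the peak itself, whatever its width, the motif was in 24 gained regions, or 4.42% (2.99 to 6.49%), and in 1.96% of shared (1.69 to 2.27%) and 0.943% of lost peaks. Away from promoters the shares in the windows were 2.86% of gained regions and 1.17% of shared peaks. Another 58 strong treated peaks had no control peak within 1 kb but did overlap WT limb H3K27ac, and 6 of them held the motif, or 10.3% (4.83 to 20.8%). Thus 527 gained regions carried no exact match in the window searched. With 1 mismatch allowed in the central 300 bp, 9.58% of gained regions (7.38 to 12.3%) and 7.33% of shared peaks (6.80 to 7.90%) had a match. The intervals with 1 mismatch overlapped.

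Other motifs were searched in the same windows on both strands. AP-1 (TGANTCA), bound by Fos and Jun proteins, was in 25.4% of gained regions (21.9 to 29.2%), 39.8% of shared peaks (38.7 to 40.8%) and 49.1% of lost peaks (42.4 to 55.7%). These 3 intervals did not overlap, with the gained regions lowest and the lost peaks highest. Across all strong treated peaks, promoters included, the AP-1 share was 27.8%. Among gained regions the share was 32.0% for the 103 of rank 1 to 10000 and 23.9% for the 440 of rank 10001 to 20000. The 3 best-ranked gained regions with an AP-1 match, among those whose printed stretch overlaps no annotated untranslated region, show a match in capitals. Rank 2218 had 2 matches in its window, and the one nearer the midpoint is shown.
rank 2015, near Enc1, chr13:97356721-97356781, plus strand: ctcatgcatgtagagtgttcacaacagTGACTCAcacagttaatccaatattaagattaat
rank 2218, near Adamts5, chr16:86028948-86029008, plus strand: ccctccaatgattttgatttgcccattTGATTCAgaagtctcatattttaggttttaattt
rank 2291, near Kcns2, chr15:34829635-34829695, plus strand: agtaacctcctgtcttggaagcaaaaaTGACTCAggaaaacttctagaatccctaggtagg
The TEAD motif (GGAATG) was in 46.2% of gained regions, 46.3% of shared and 47.2% of lost peaks, values within each other's intervals, and in 42.4% of all strong treated peaks. The RUNX motif (TGTGGTT) was in 19.3%, 20.6% and 25.9% of the same sets and in 16.9% of all strong treated peaks. The forkhead motif (TGTTTAC) was in 15.5% of gained regions (12.7 to 18.8%), 12.0% of shared peaks (11.3 to 12.7%) and 14.2% of lost peaks (10.1 to 19.5%), with 11.1% over all strong treated peaks. The C/EBP motif (TTGCNNCAA) was in 9.94%, 7.91% and 9.43%, with 7.15% over all. The sets also differed in base composition, with a median GC content of the 1 kb window of 45.8% in gained regions, 48.4% in shared and 43.4% in lost peaks. Whether base composition bears on the motif shares was not tested.

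**Figure D1:**
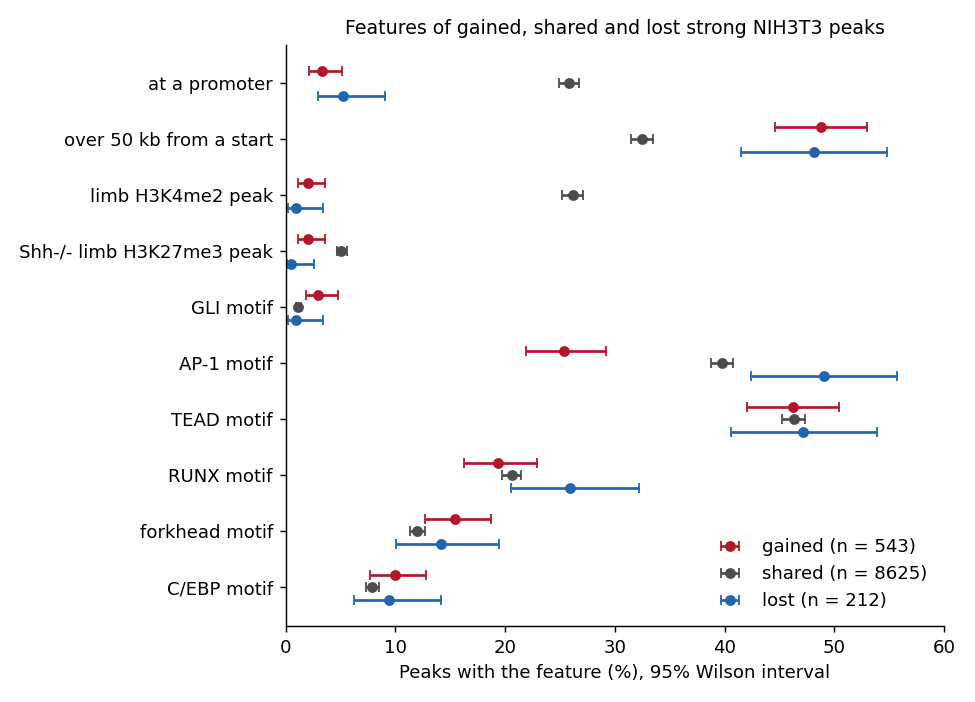
Percentage of peaks with each feature (horizontal axis) for gained regions, shared peaks and lost peaks; points are shares and bars 95% Wilson intervals. Gained and lost peaks sit together at 3.31% and 5.19% for promoters, far below the shared peaks at 25.8%, while for AP-1 the gained regions at 25.4% lie at the opposite end from the lost peaks at 49.1%.

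The gained regions ranged from weak to strong within the rank limit. The log2 ratio of ChIP to input was lowest at 3.47, had a median of 3.77 and reached 5.30. The shared peaks had a median of 3.92. Width ran from 250 to 9850 bp with a median of 1200 bp, compared with 1300 bp for shared and 900 bp for lost peaks. By rank, 33 gained regions fell within 1 to 5000, 70 within 5001 to 10000, 162 within 10001 to 15000 and 278 within 15001 to 20000. Just inside the limit were ranks 19961, 19963 and 19980 with log2 ratios of 3.47, 3.48 and 3.55, and just outside were ranks 20013, 20015 and 20021 with 3.53, 3.51 and 3.50, so the limit does not mark a step in the data. A further 16357 weaker treated peaks met the other conditions. The reverse selection from the control list gave 212 lost peaks, 1.06% of 19989 strong control peaks. Equal ranks are not equal strength in the 2 lists, which held 87766 treated and 90969 control peaks. The lowest score of ChIP against input was 4.57 among strong treated and 4.84 among strong control peaks. Their lowest log2 ratios were 3.47 and 3.37. Only 1 lost peak was among the best 5000 ranks, against 33 gained regions, whereas from rank 35001 to 40000 the unmatched shares were close, at 18.4% of treated and 18.7% of control peaks.

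**Figure D2:**
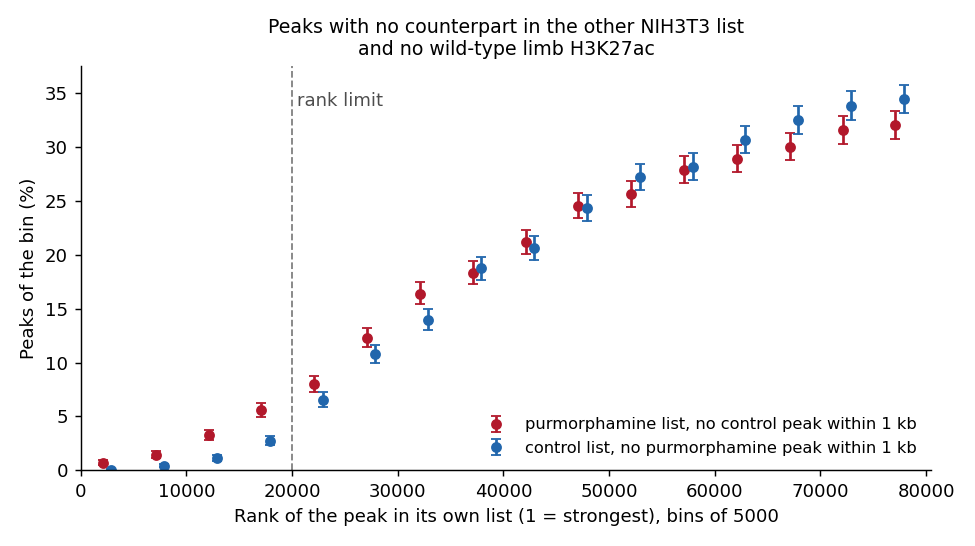
Percentage of peaks (vertical axis) with no peak of the other NIH3T3 list within 1 kb and no WT limb H3K27ac, by rank in bins of 5000 (horizontal axis), with 95% Wilson intervals; the dashed line is the rank limit. Between ranks 15001 and 20000 the share was 5.56% in the treated and 2.72% in the control list, and from rank 35001 to 40000 the values were 18.4% and 18.7%.

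The distance from a gained region to the nearest control peak had a median of 8451 bp and reached 181851 bp. It exceeded 10 kb for 243 regions, 50 kb for 42 and 100 kb for 12, and for 4 it was 1001 bp, just over the limit. The nearest control peak ranked within 20000 in its own list for 82 of the 543 regions, and 19989 of all 90969 control peaks ranked so. Its median rank was 56988.

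The 10 best-ranked gained regions had log2 ratios between 4.77 and 5.30. After the Chd6 region came rank 485, at chr5:74168350-74171199 between genes, 24087 bp from the start of Rasl11b, which encodes a small GTPase-like protein. Its log2 ratio was 5.19 and its nearest control peak lay at 4101 bp with a ratio of 2.49. Rank 1878 was in the same neighbourhood, in an intron of Scfd2. Rank 860, at chr13:16675150-16680399, lay 660675 bp from the nearest coding start, that of Inhba, which encodes a subunit of activin and inhibin. Its log2 ratio was 5.07 over 5250 bp.
Rank 946 lay in an intron of Ccdc34 (log2 ratio 5.04) and rank 1146 was 32527 bp from the start of Ccdc3 (5.07). Rank 2015 (4.84) was nearest to Enc1, which encodes a Kelch-family protein, and rank 2157 (4.83) to Ccdc171, 489886 bp away and 40851 bp from any control peak. Rank 2210 covered 7100 bp at the promoter of Gm29797 (4.78), and rank 2218 was 126372 bp from Adamts5 (4.77), which encodes a protease of cartilage aggrecan. Thus 1 of these 10 was at a promoter and 6 lay between genes with a start at least 24087 bp away. The 5 widest gained regions were rank 2940 near Pard3, a cell polarity gene (9850 bp), rank 5783 near Asap1, an Arf GTPase regulator (9200 bp), rank 2210 (7100 bp), rank 2291 near Kcns2, a potassium channel subunit gene (6300 bp), and rank 5961 near Gm10295 (5550 bp).

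Gained regions lay away from gene starts. They comprised 296 between genes, 197 in introns, 32 over exons and 18 at promoters, defined as the 2 kb before and the 1 kb after a protein-coding start in GENCODE vM21. The promoter share was 3.31% (2.11 to 5.18%), against 25.8% of shared peaks (24.9 to 26.8%), 5.19% of lost peaks (2.92 to 9.05%) and 52.2% of all strong treated peaks. The intervals of gained and lost peaks overlapped, and both lay below that of shared peaks. A distance over 50 kb from a start was seen for 265 gained regions, or 48.8% (44.6 to 53.0%), for 32.4% of shared (31.5 to 33.4%) and 48.1% of lost peaks (41.5 to 54.8%). Of the 229 regions within exons or introns, 176 had their nearest start in a gene they lay in, and for 53 the nearest start was of another gene, so the names of nearest genes are positions and not assigned targets.

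The 18 promoter regions belonged to 15 genes, which were named after their values were seen. The strongest were at Gm29797 (log2 ratio 4.78) and at Snorc (4.71 and 4.53), which encodes a proteoglycan of cartilage. Those with ratios of 4.78 and 4.71 lay 666 and 422 bp from the start. The Snorc region of 4.53 and another Gm29797 region, of 4.09, lay over the start. Others with a peak over the start itself were Pgf, encoding placental growth factor (4.00 over 5500 bp), 4930518I15Rik (3.82), Arhgap8 (3.66) and Map3k5, a stress-activated kinase gene (3.53). At Rasl12, Gm11444, Aatk, Ccdc187, Mlh3 and Trhr2 the ratios lay between 3.47 and 3.62. Aff3, Camk1d and Pltp had an acetylation peak in both lists at some annotated start, not necessarily the one beside the gained region. The nearest control peak lay 37701 bp from the gained region at Aff3, 16301 bp at Camk1d and 1751 bp at Pltp.

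Acetylation at the starts of the nearest gene was read for the 525 gained regions that were not at a promoter. A gene counted for a list if the promoter window of any of its annotated starts overlapped an H3K27ac peak. Both lists could thus be met at different starts of a gene. The nearest gene counted in both lists for 361 regions, in the treated list alone for 77 and in neither for 87. It counted in the control list alone for 0. This allows a share of up to 0.571% if a count of 0 is taken to allow 3 (the upper Wilson limit is 0.726%). The treated list alone therefore accounted for 14.7% (11.9 to 17.9%), compared with 3.22% (2.81 to 3.68%) for shared peaks and 0.498% (0.0879 to 2.76%) for lost peaks. The control list alone accounted for 7.96% of lost peaks (4.96 to 12.5%). Over all 21644 coding genes with an annotated start the shares were 1.51% for the treated and 1.40% for the control list. These values come from the same pair of lists that chose the regions, and several regions share a gene, so they are a description. The 525 regions and the promoter ones together had 287 nearest genes, of which 206 counted in both lists, 33 in the treated list alone and 48 in neither.

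**Figure D3:**
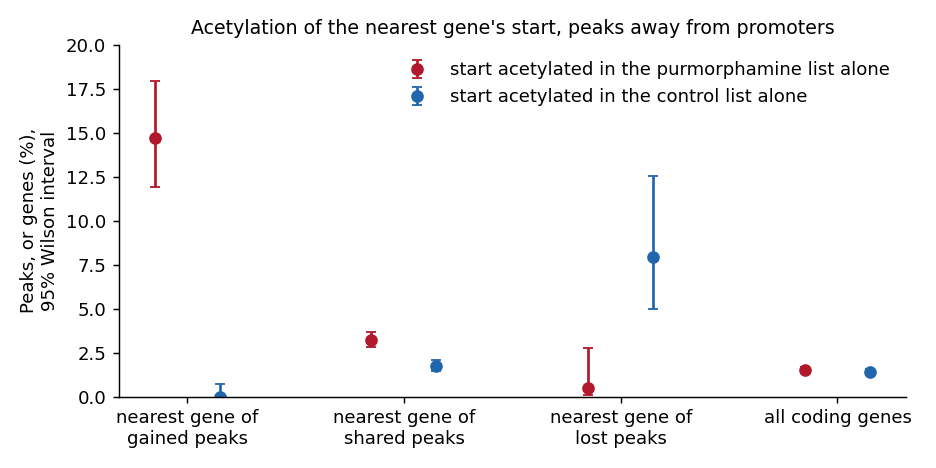
Percentage of peaks away from promoters (gained, shared and lost) by their nearest gene, or of all coding genes, with an H3K27ac peak at any annotated start of the gene in the treated list alone or the control list alone. Points are shares and bars 95% Wilson intervals. The gained regions reach 14.7% for the treated list alone and 0 for the control list alone, whereas the lost peaks show 0.498% and 7.96%.

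Many gained regions lay near another. Another gained region lay within 100 kb for 360 of them, or 66.3% (62.2 to 70.1%). A neighbour of the same set was as close for 31.1% of lost peaks (25.3 to 37.7%), 85.0% of shared peaks and 93.0% of all strong treated peaks. These sets differ in size, with 543 gained, 212 lost, 8625 shared and 19989 strong treated peaks, and a larger set has more neighbours by number alone. Some neighbours lay very close: merging gained regions within 1 kb left 449. Of these merged regions, 52.3% had another within 100 kb. Linking regions at gaps up to 100 kb gave 281 chains, 183 of them a single region and 21 with at least 5, which held 167 regions. The lost peaks gave 175 chains, 2 of them with at least 5 peaks. Regions in chains of at least 5 had a median width of 1500 bp, those alone 900 bp, and the exact GLI motif was in 1 of 167 of the former and 9 of 183 of the latter, or 0.599% (0.106 to 3.31%) and 4.92% (2.61 to 9.08%), with overlapping intervals.

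The largest chain had 19 gained regions across 381900 bp of chromosome 13, from Foxd1, which encodes a forkhead factor, past Tmem174 and Tmem171 into Fcho2. Over this stretch the treated list had 224 peaks and the control list 45. Besides the 19 gained regions, 19 other strong treated peaks overlapped a control peak and 3 had one within 1 kb. The highest log2 ratio was 5.94 in the treated list and 3.55 in the control list, each against its own input, and the gained regions ranged from 3.53 to 4.55. The region next to Foxd1, of rank 13033, lay 2643 bp from its start and overlapped an H3K27me3 peak of Shh-/- limb buds.
The next chain had 15 regions across 237850 bp of chromosome 2 around Ccdc3, with 151 treated and 13 control peaks. Its gained regions ranged from 3.51 to 5.07 in log2 ratio, and 5 other strong treated peaks there overlapped a control peak.
A chain near Gm10295 on chromosome 7 had 13 regions across 326550 bp, with 132 treated and 13 control peaks. Its gained regions ranged from 3.64 to 4.55, and 8 of them lay over 10 kb from any control peak, up to 76401 bp.
All 3 stretches thus held more treated than control peaks, while the whole lists had a ratio of treated to control peaks of 0.965. The 3 were chosen for holding the most gained regions.

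**Figure D4:**
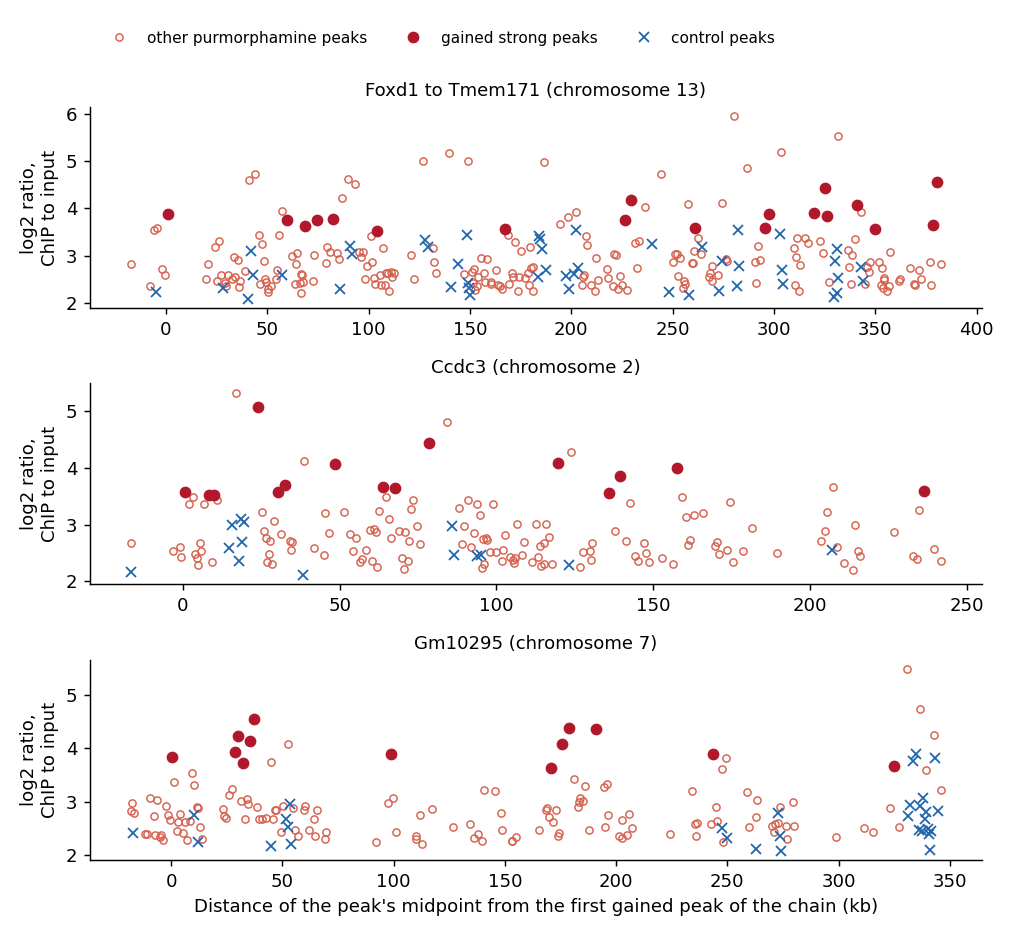
Log2 ratio of ChIP to input (vertical axis) against the distance of the peak's midpoint from the first gained region (horizontal axis, kb) in the chains with the most gained regions; filled circles are gained regions, open circles other treated peaks and crosses control peaks, each against its own input. Control peaks are few and reach at most 3.55 within the chromosome 13 stretch, while treated peaks there reach 5.94.

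Gained regions were unevenly spread over chromosomes. Chromosome 13 had 86 and chromosome 2 had 82, together 168 of 543. They were 9.11% of the strong treated peaks of chromosome 13 (7.44 to 11.1%) and 5.07% of those of chromosome 2 (4.10 to 6.25%), against 2.72% over all chromosomes. Chromosome 4 followed with 3.89% (2.96 to 5.09%), and chromosomes 17 and X were lowest with 5 and 1 regions, or 0.522% and 0.222%. Chromosome 13 had 5207 treated and 4442 control peaks in all, a ratio of 1.17. The same chromosome also had the highest share of lost peaks, at 2.28% of its strong control peaks. The 5 Mb block with the most gained regions, with 24, was chromosome 13 from 95000001 to 100000000, where 714 treated and 388 control peaks were listed. Outside chromosomes 2 and 13, the 375 gained regions had a promoter share of 2.93%, a GLI share of 3.20% and an AP-1 share of 23.7%, against 4.17%, 2.38% and 29.2% on these chromosomes.

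**Figure D5:**
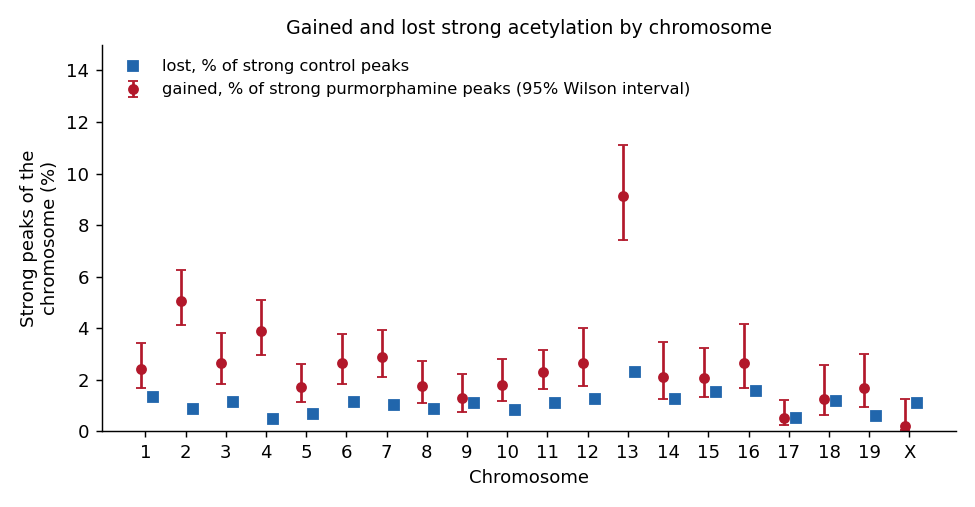
Gained regions as a percentage of the strong treated peaks of each chromosome (circles, 95% Wilson intervals) and lost peaks as a percentage of the strong control peaks (squares). Chromosome 13 stands at 9.11% and chromosome 2 at 5.07%, and all other chromosomes lie at or below 3.89%.

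Limb marks were rare at gained regions and also at lost peaks, apart from the WT H3K27ac that the selection had removed. H3K4me2, which marks both active and poised regulatory elements, overlapped 8 gained regions in WT and 10 in Shh-/- limb buds, 11 in either. This was 2.03% (1.13 to 3.59%), compared with 26.1% of shared peaks (25.2 to 27.1%) and 0.943% of lost peaks (0.259 to 3.37%). Away from promoters the values were 1.33% (0.647 to 2.73%) for gained regions and 6.99% (6.39 to 7.64%) for shared peaks, and those intervals did not overlap either. Among promoter regions, 4 carried H3K4me2 in both genotypes, at Pgf, Arhgap8, Aatk and Map3k5. H3K27ac in Shh-/- limb buds overlapped 5 gained regions, or 0.921% (0.394 to 2.14%). The share was 7.39% of shared peaks (6.85 to 7.96%), 1.89% of lost peaks (0.736 to 4.75%) and 49.3% of all strong treated peaks. The last set includes peaks that overlap WT limb H3K27ac. Among the 5 gained regions were the wide one of rank 5961 in the chromosome 7 chain and one near Zfp703, which encodes a zinc finger protein. In all, 519 of 543 gained regions overlapped none of the limb peaks listed for any mark. The selection had already excluded WT H3K27ac, and no such count is given for the other sets.

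H3K27me3, the mark of Polycomb silencing, was mapped in Shh-/- limb buds alone. It overlapped 11 gained regions, or 2.03% (1.13 to 3.59%), against 5.09% of shared (4.65 to 5.57%) and 0.472% of lost peaks (0.0833 to 2.62%). Away from promoters the shares were 1.71% for gained regions (0.904 to 3.23%) and 1.64% for shared peaks (1.36 to 1.98%). Of the 11 regions, those of Arhgap8 and Aatk were at promoters, and others lay 2369 bp from the start of Dio3, which encodes a deiodinase of thyroid hormone, 2643 bp from that of Foxd1 and 8894 bp from that of Edn2, which encodes endothelin-2. In introns were those in Slc17a6, Nav1 and Gmds, the last with 2 regions, whose nearest start was that of Foxc1 at 224167 and 255867 bp. The remaining ones lay between genes, 21900 bp from the start of Foxo6 and 60511 bp from that of Tmem174. These regions were named after their values were seen.

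Among genes of the Hedgehog pathway, gained regions were found at a few loci, taken as the gene with 20 kb on either side. Over all 21728 coding genes 297 loci, or 1.37%, held a gained region. The lists covered ligand reception and processing, GLI factors with their regulators, and known targets. Genes with a gained region included Ptch1, a Patched receptor gene and known target, Gli2 among the GLI factors, and the targets Foxd1 and Thbd, which encodes thrombomodulin. In all 5 of 60 different genes had one, while 42 of the 60 had a strong treated peak of some kind. The count fell to 0 at a rank limit of 10000 and to 3 with no control peak within 5 kb. Of 14 GLI factors and regulators, 1 had a gained region and 2, Gli3 and Spop, had a lost peak. The lists of reception and of targets had 0 genes with a lost peak. Over all 21728 coding genes, 147 loci held a lost peak. These lists were set with earlier results of these data known, so the counts are a description.
Ptch1 had 1 gained region, of rank 18650 and log2 ratio 3.55, in an intron 7986 bp from a start. Each list had a peak at an annotated start of Ptch1. Of 9 treated peaks at Ptch1, 7 had no control peak within 1 kb, and 6 of these ranked below the limit. Gli2, the main activator among the GLI factors, had 2 regions in introns with ratios of 3.79 and 3.68, and the former lay 78501 bp from any control peak. At Foxd1 the start had no peak in either list and the gained region had a ratio of 3.87. At Thbd the gained region (3.78) lay 1301 bp from a control peak.
At Gli1, a standard readout of Hedgehog activity, no region met the rule. Its strong treated peaks without a control peak within 1 kb, of rank 96 and 713 with ratios of 5.60 and 5.19, overlapped WT limb H3K27ac. Shh, Ihh, Hhip, Zic1, Hand2, Sfrp1 and Pax1 had no peak in either NIH3T3 list within their loci.

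Other pathways had few gained regions. In the Wnt list 3 of 36 genes had one: Wnt5b, a ligand gene, with a region of ratio 3.57 and a GLI motif 85 bp outside it, Lrp6, a co-receptor gene (3.51), and Dkk2, a secreted modulator (4.17). The region counted for Lrp6 lay outside that gene, over an exon of Bcl2l14, whose start was the nearest at 12922 bp. Of 21 genes of the FGF pathway, Fgfr2 had one, but the annotated body of Fgfr2 runs from 130162451 to 133123350 on chromosome 7 and the region lies in it 60533 bp from the start of Lhpp. In the list of fat cell regulators, 2 of 20 had gained regions, Klf4 (4.37) and Ebf1, an early B-cell factor gene also active in fat cell precursors, with 5 regions in its introns and ratios of 3.49 to 3.89. Of 34 genes of matrix and contraction, Ccn2, encoding connective tissue growth factor (4.34), and Fbn1, encoding fibrillin-1 (3.63), had one. Of 22 forkhead genes, Foxd1 had one. None of 34 BMP and TGF-beta genes, 24 regulators of bone and cartilage, 20 genes of AP-1 and the serum response, 23 cell cycle genes, 10 fibroblast markers or 12 markers of other cell types had one at its locus. In all 13 of 295 listed genes had a gained region, 4.41%, against 1.37% of all coding genes, and the listed genes had been chosen for regulatory and developmental roles. Lost peaks lay at 2 of 14 GLI factors, 1 of 36 Wnt genes and 2 of 20 AP-1 and serum genes, against 147 of 21728 coding genes. Shared peaks lay at 5819 of all coding genes, and in the lists from 5 of 21 FGF genes to 7 of 10 fibroblast markers. Whether the higher share of listed genes is particular to gained regions was not tested.

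Some genes had many gained regions nearest to their start, and these were named after their values were seen. Of 287 nearest genes, 54 had at least 3 regions and 18 at least 5. Gm10295 had 13, Ccdc3 12, Sugct 10, Ccdc34 9, and Rasl11b and Hsd17b3, which encodes an enzyme of testosterone synthesis, 8 each. By any annotated start, 33 of the 54 genes were acetylated in both lists, 11 in the treated list alone and 10 in neither. Lost peaks were nearest to 1 of the 54, Filip1l.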

How the data were processed

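Mouse ChIP-seq was used as 7 peak lists, 1 per condition. The authors aligned reads with Bowtie2 2.2.5 to mm10 and called peaks with CisGenome on both replicates of a condition together against input. Depth per library was not used here, and replicate lists were not analysed here. Per the file headers, each deposited peak has a rank, a score (the largest statistic of ChIP against input, on which the rank is ordered), the largest log2 ratio of ChIP to input, −log10 of the smallest Poisson p-value (values stop at 100) and a false discovery rate or q-value. These deposited values were used to rank and describe peaks within a list, and no columns of other comparisons were used.

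Groups came from the sample labels. The members and lists were chosen with earlier results of these data known. Peaks on chromosomes 1 to 19 and X were kept. The distance between peaks is the first base of the later minus the last base of the earlier, with 0 for an overlap of 1 bp or more. bedtools 2.31.1 gave the same 543 regions. Genes and starts are protein-coding ones of GENCODE vM21 basic, and sequences are from GRCm38.p6 in windows of 1000 bp around the midpoint. Coordinates are 1-based. Scripts used Python 3.11.15 with pandas 2.3.3 and pysam 0.24.0, and the functions for distance, neighbours, motifs and intervals were tested on simulated data. A count of 0 allows up to 3 counts. No p-values were computed, because the lists hold no replicates and the regions were selected on the same readout. Named regions were the 10 best-ranked, the 5 widest, the 10 best-ranked with a GLI motif, the 3 largest chains, and those beside the rank limit. Named genes were those of the gene lists with a gained region at their locus and the nearest start of each named region. Alternatives were other rank limits, control distances, promoter, motif, neighbour and locus definitions, gaps to limb peaks, no limb condition, merged regions, and leaving out the densest block. A result at 1 locus is not reported here.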

Additional observations from a re-analysis of the deposited data

How the results depend on the processing

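No paired analysis was possible because each deposited list pools both replicates, and for the same reason leaving out a replicate could not be run. Of 63 settings, 48 kept counts within 1.5 times and shares within the 95% interval of the value reported. A rank limit of 10000 gave 103 regions, 0.971% with limb H3K4me2, 59.2% with another within 100 kb, 3 listed genes and 0 Hedgehog genes with a region. Requiring no control peak within 5 kb gave 353 regions, 7 listed genes and 3 Hedgehog genes. Without the condition on limb H3K27ac, limb H3K4me2 was at 3.83% and Shh-/- limb H3K27ac at 3.83%. A promoter of 500 bp on either side gave 1.66%, and 1 mismatch in the GLI motif 9.58%. Merging regions within 1 kb put the share with a neighbour within 100 kb at 52.3%, and a distance of 20 kb at 52.1%. Loci with 100 kb on either side gave 22 listed genes with a region. The presence of a peak depends on depth and input, which differ between libraries and were not measured here, so a weak control peak below the caller's limit counts as none.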

Other observations

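The 58 strong treated peaks that had no control peak within 1 kb but overlapped WT limb H3K27ac were left out of the gained regions by the limb condition. Those of rank 96 and 713 lay at Gli1, and that of rank 1282 (log2 ratio 5.06) lay near Hsd17b3. Limb H3K4me2 overlapped 20.7% of them (12.3 to 32.8%), against 2.03% of gained regions (1.13 to 3.59%). An AP-1 match was in 13.8% (7.16 to 24.9%), against 25.4% (21.9 to 29.2%), with intervals that overlapped. A distance over 50 kb from a start was seen for 50.0% (37.5 to 62.5%), against 48.8%. H3K27ac of Shh-/- limb buds overlapped 18 of the 58.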
